A study of Mus musculus with 12 samples.

Results

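The genes described here are 10 neuronal microtubule and growth cone genes, chosen by name from 55401 gene identifiers: Stmn1, Stmn2, Stmn3, Stmn4, Mapt, Dcx, Tubb3, Dpysl3, Kif5a and Gap43. They were measured by RNA-seq in Neuro-2a, an established mouse neuroblastoma line, in 3 groups of 4 libraries. All groups received 1 µg of a GFP plasmid and 3 µg in total of artificial microRNA plasmid, and GFP-positive cells were collected by sorting 48 hours after transfection. The control group, miScramble, received a scramble microRNA, the miRbmx group a pool of 3 plasmids against Rbmx, and the miRbmxl1 group a pool of 2 plasmids against Rbmxl1. Rbmx encodes an RNA-binding protein of the cell nucleus, and Rbmxl1 is an autosomal copy of it. The groups are called scramble, Rbmx knockdown and Rbmxl1 knockdown below. The knockdown is transient and partial, in 1 cell line, and the sort selected cells on GFP. The labels call the 4 libraries of a group biological replicates but do not say what their numbers stand for. So p-values measure only the spread between these libraries. In the main fit this is the spread that remains, over all groups, once the replicate number is fitted as a block.

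Microtubules are hollow polymers of alpha- and beta-tubulin that carry transport along axons and are remodelled at the growth cone, the moving tip of a growing neurite. Stathmins bind free tubulin and promote microtubule disassembly, while tau (Mapt) and doublecortin (Dcx) bind along the polymer and stabilise it. Tubb3 is the neuronal beta-tubulin and Kif5a a neuronal heavy chain of the transport motor kinesin-1. Dpysl3 is a collapsin response mediator protein, and Gap43 a membrane protein of growth cones.

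Library depth was 43.1 to 52.2 M reads in genes, and all 10 genes passed the filter on low counts, as did 17569 of the 55401 identifiers. The targeted genes fell in their own groups: Rbmx from 67.7 ± 7.15 to 27.6 ± 4.96 CPM, counts-per-million values (SD, n = 4; log2 fold change −1.30 ± 0.08 SE, adjusted p = 2.1e-07), and Rbmxl1 from 34.1 ± 2.21 to 14.2 ± 1.99 CPM (−1.27 ± 0.09, adjusted p = 3.2e-06). The other copy did not fall: Rbmxl1 was at 36.1 ± 2.11 CPM in the Rbmx knockdown (0.08 ± 0.09, adjusted p = 0.601). Rbmx rose to 86.3 ± 3.51 CPM in the Rbmxl1 knockdown (0.36 ± 0.07, adjusted p = 0.0165, higher in 4 of 4 pairs). With the replicate number left out of the fit, 1 gene in all passed in the Rbmxl1 knockdown. This rise and the fall of Rbmxl1 thus cannot both keep their calls in that fit. Markers of neuroblastoma and sympathetic neurons were above 1 CPM for 9 of 10 genes, while the glial genes Sox10, S100b and Aqp4 had at most 3 counts in any library and the fibroblast gene Col3a1 had 0. Of the other lists, 2 of 8 glial, 1 of 6 fibroblast and 1 of 5 blood and endothelial markers were above 1 CPM. The summed neuroblastoma and sympathetic markers were at 1322 to 1732 CPM in scramble, 1442 to 1731 in the Rbmx knockdown and 1416 to 1695 in the Rbmxl1 knockdown. In every group, replicates 3 and 4 stood apart from replicates 1 and 2 across the transcriptome, so changes of the 10 genes are also given within each of these sets.

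The RefSeq promoter table used here held 3 of the 10 genes, Stmn3, Dcx and Tubb3, and their promoters are shown to set beside the levels below. Each is the stretch from 250 bases before to 50 bases after a start site in RefSeq (GRCm38.p6), 5′ to 3′ on the gene's strand. Capitals mark GGGCGG (the GC box), CAGCTG (an E-box), CCAAT and TATAAA on either strand. Dcx has a second start site in the table, whose window overlaps the one shown.
Stmn3 promoter, chr2:181314451-181314750, minus strand: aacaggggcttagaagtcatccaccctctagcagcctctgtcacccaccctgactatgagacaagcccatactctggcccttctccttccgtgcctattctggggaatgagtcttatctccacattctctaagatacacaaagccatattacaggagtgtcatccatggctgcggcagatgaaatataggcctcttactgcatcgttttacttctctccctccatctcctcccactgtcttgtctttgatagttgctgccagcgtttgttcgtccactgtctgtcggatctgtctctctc
Dcx promoter, chrX:143933170-143933469, minus strand: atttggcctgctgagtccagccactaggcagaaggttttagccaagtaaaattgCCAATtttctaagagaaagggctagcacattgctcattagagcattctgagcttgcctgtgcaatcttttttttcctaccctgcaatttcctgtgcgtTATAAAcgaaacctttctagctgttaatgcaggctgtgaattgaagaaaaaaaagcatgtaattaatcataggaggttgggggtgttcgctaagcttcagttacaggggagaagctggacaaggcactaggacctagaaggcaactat
Tubb3 promoter, chr8:123411303-123411602, plus strand: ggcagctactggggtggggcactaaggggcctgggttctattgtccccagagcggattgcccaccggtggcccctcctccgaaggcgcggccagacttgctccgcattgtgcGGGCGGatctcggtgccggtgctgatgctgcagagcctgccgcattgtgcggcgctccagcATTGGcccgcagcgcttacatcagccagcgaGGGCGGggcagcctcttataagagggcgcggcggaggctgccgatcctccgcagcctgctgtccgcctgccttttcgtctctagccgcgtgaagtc
The Stmn3 window held none of the 4 motifs and 6 CpG dinucleotides, at 49.7% GC. The Dcx window had 1 CCAAT and 1 TATAAA, 3 CpG and 43% GC. Tubb3 had 2 GC boxes, starting at −138 and −46 from the start site, 1 CCAAT on the opposite strand, 26 CpG and 67.3% GC. Among all 32851 promoter windows of that length, 35.7% held GGGCGG, 16.3% CAGCTG, 37.4% CCAAT and 13.6% TATAAA, with a median of 7 CpG and 52.7% GC. These matches describe letters only.

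In scramble cells the 10 genes differed widely in level per length of exon. Dpysl3 was highest at 289 CPM per kb, above 99.4% of the 12720 tested protein-coding genes. Tubb3 (191), Stmn3 (142), Stmn1 (132) and Gap43 (110.5 CPM per kb) followed, each above at least 97.9% of them. Stmn2 stood at 46.9 and Mapt at 44.4 CPM per kb, above 93.3% and 92.7% of genes, and Kif5a at 20.3, above 79.6%. Stmn4, at 6.36 CPM per kb, lay near the middle, above 47.6%. Dcx was at 0.0636 CPM per kb, above 1.82% of tested genes, from 34 to 43 counts per scramble library, and was by far the lowest of the 10. The scramble libraries of Stmn3 and Stmn1 overlapped, as did those of Stmn2 and Mapt, and the other neighbours in this order did not. Of the 50-base words of Stmn1, 18.87% also occur in other genes, mostly in Gm11223, so its counts are less certain.

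**Figure D1:**
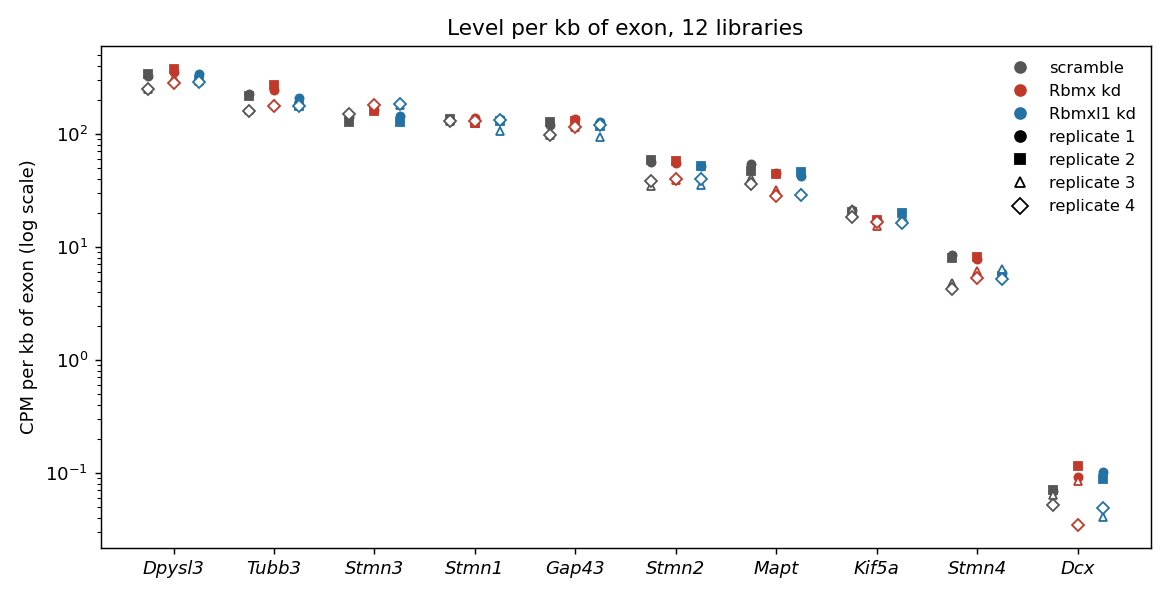
Level of each gene in CPM per kb of exon, on a log axis, in 12 libraries (colours give the group, kd standing for knockdown, and symbols the replicate number). From Dpysl3 at 289 to Dcx at 0.0636 CPM per kb in scramble, the order of the genes spans the axis.

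Among the stathmins, Stmn3 and Stmn1 made up most of the summed level per kb of exon. This order rests on the annotated exon lengths (5.60 kb for Stmn2, 1.14 kb for Stmn3): without division by length, Stmn2 was highest in scramble at 263 CPM, with Stmn1 at 253 and Stmn3 at 161 CPM. In scramble cells Stmn3 took 43.4% ± 3.89, Stmn1 40.3% ± 1.2, Stmn2 14.3% ± 3.49 and Stmn4 1.94% ± 0.612 of the summed stathmin CPM per kb (SD, n = 4). The Stmn3 share was 48.2% ± 3.73 in the Rbmx knockdown and 47.4% ± 6.76 in the Rbmxl1 knockdown. Its libraries overlapped between scramble (38.5% to 46.6%) and the Rbmx knockdown (44.5% to 51.8%). In every same-numbered pair it was higher in the knockdown. Scramble replicates 1 to 4 were at 42.2%, 38.5%, 46.5% and 46.6%, and the Rbmx knockdown at 44.5%, 45.5%, 51.8% and 51%. The Rbmxl1 knockdown was at 42.8%, 40.8%, 55.1% and 51%. The Stmn1 share was 36.4% ± 1.28 and 37.4% ± 4.04. It ran from 38.6% to 41.2% in scramble and from 35.5% to 38.3% in the Rbmx knockdown, without overlap. The summed level was 318 to 334 CPM per kb in scramble and 352 to 363 in the Rbmx knockdown, without overlap. Rbmxl1 knockdown libraries spread from 314 to 359.7 CPM per kb and overlapped both. From scramble to the Rbmx knockdown, Stmn3 itself went from 142 to 171 CPM per kb. Stmn1 went from 132 to 129.6, Stmn2 from 46.9 to 47.8 and Stmn4 from 6.36 to 6.86 CPM per kb. The higher sum and the lower Stmn1 share thus follow the Stmn3 level and are no separate results. Of all single genes tested, 8.07% did not overlap between these groups. The ratio of Stmn3 to Stmn2 per kb followed the replicate number more than the group: 2.16 to 2.94 in replicates 1 and 2, and 3.95 to 5.09 in replicates 3 and 4.

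**Figure D2:**
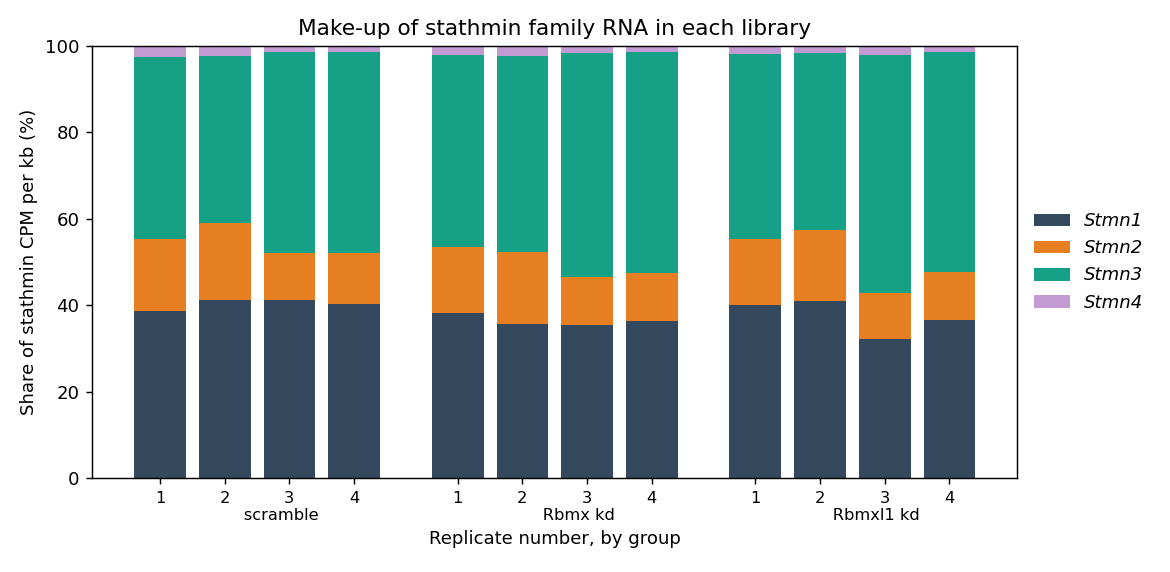
Share of each stathmin in the summed stathmin CPM per kb, in percent, for each library (kd, knockdown). Stmn3 and Stmn1 fill most of every bar, and the Stmn2 segment is narrower in replicates 3 and 4 of each group.

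Stmn3 (chr2:181306459-181314500, minus strand, GRCm38), a stathmin of neurons, rose in the Rbmx knockdown. It was at 160.3, 145, 168 and 172 CPM in scramble replicates 1 to 4, and at 183, 182, 208 and 205 CPM in the Rbmx knockdown. Every knockdown library was above every scramble library. The log2 fold change was 0.27 ± 0.06 (SE, adjusted p = 0.0173), higher in 4 of 4 same-numbered pairs. In the Rbmxl1 knockdown Stmn3 was at 163, 146, 206 and 208 CPM, 0.15 ± 0.06 above scramble (adjusted p = 0.180). There, replicates 1 and 2 were near their scramble partners and replicates 3 and 4 well above them.

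Mapt (chr11:104231390-104332090, plus strand) fell in both knockdowns. Scramble replicates 1 to 4 were at 404, 354, 308 and 272 CPM, the Rbmx knockdown at 336, 329, 241 and 212, and the Rbmxl1 knockdown at 316, 347, 226 and 216. The groups overlapped because the replicate numbers differed so much, but each knockdown library was below the scramble library of its number. The changes were −0.27 ± 0.06 (adjusted p = 0.0176) and −0.29 ± 0.06 (adjusted p = 0.0211).

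Kif5a (chr10:127225696-127263348, minus strand) fell in the Rbmx knockdown, from 148, 141, 152 and 127 CPM to 122, 122, 107 and 116, with no overlap between the groups. The change was −0.29 ± 0.07 (adjusted p = 0.0174), lower in 4 of 4 pairs. In the Rbmxl1 knockdown it was at 118, 139, 119.7 and 113 CPM, also lower in 4 of 4 pairs, at −0.22 ± 0.07 (adjusted p = 0.0718). The other kinesin-1 heavy chains were at −0.03 ± 0.06 (Kif5b) and −0.01 ± 0.06 (Kif5c) in the Rbmx knockdown, and neither passed the test.

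The remaining 7 genes passed the test in neither knockdown. Tubb3, Dpysl3 and Gap43 were higher in 4 of 4 Rbmx knockdown pairs, at 0.19 ± 0.09 (adjusted p = 0.215), 0.20 ± 0.07 (0.0848) and 0.17 ± 0.07 (0.132). Dpysl3 stood at 2142, 2215, 1633 and 1656 CPM in scramble and at 2328, 2486, 2073 and 1858 CPM in the Rbmx knockdown. Tubb3 stood at 421, 407, 302 and 295 CPM in scramble and at 455, 502, 340.2 and 326 CPM there, and Gap43 at 180.4, 193, 150 and 149 against 205, 197, 176 and 174 CPM. All 3 genes overlapped between the groups. Stmn1 was at −0.02 ± 0.06 and Stmn2 at 0.04 ± 0.06, and Stmn4 (0.14 ± 0.13) and Dcx (0.28 ± 0.28), the lowest in level, had the widest errors. In the Rbmxl1 knockdown the 7 genes lay between −0.09 ± 0.14 (Stmn4) and 0.09 ± 0.07 (Dpysl3).

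**Figure D3:**
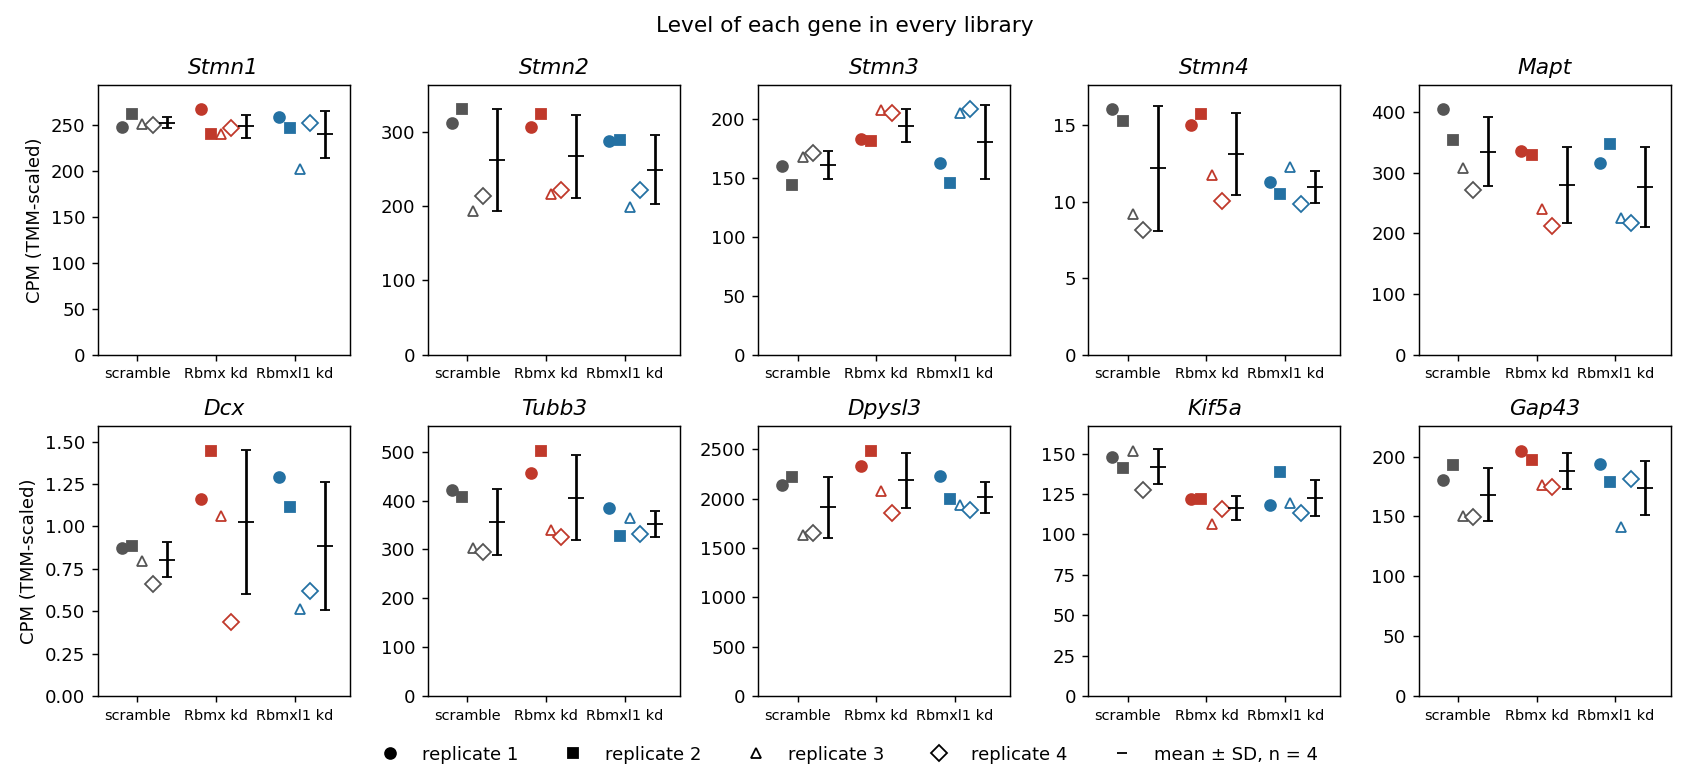
CPM of each gene in every library, by group (kd, knockdown), with symbols for the replicate number and bars for mean ± SD (n = 4). Rbmx knockdown libraries of Stmn3 lie above, and those of Kif5a below, all scramble libraries, and open symbols (replicates 3 and 4) lie apart from filled ones in Stmn2 and Mapt.

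In count, 3 of the 10 genes passed the test in the Rbmx knockdown (1 higher, 2 lower), where 8.35% of all tested genes did (4.16% higher, 4.19% lower). In the Rbmxl1 knockdown 1 of the 10 passed (lower), where 4.46% of all genes did (2.25% higher, 2.20% lower). All 4 pairs went the same way for 6 of 10 genes in the Rbmx knockdown (34.5% of all genes; 17.7% higher, 16.8% lower) and for 3 of 10 in the Rbmxl1 knockdown (25.9%; 13.4% higher, 12.6% lower). Groups did not overlap for 2 of 10 (8.07% of all genes) and 0 of 10 (5.67%). The median log2 fold change of the 10 was 0.15 and −0.02, against 0.00 and 0.01 over all genes. The genes were chosen with results of these contrasts known, so counts and p-values describe them and nothing is read from their excess. Both contrasts share the scramble libraries.

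**Figure D4:**
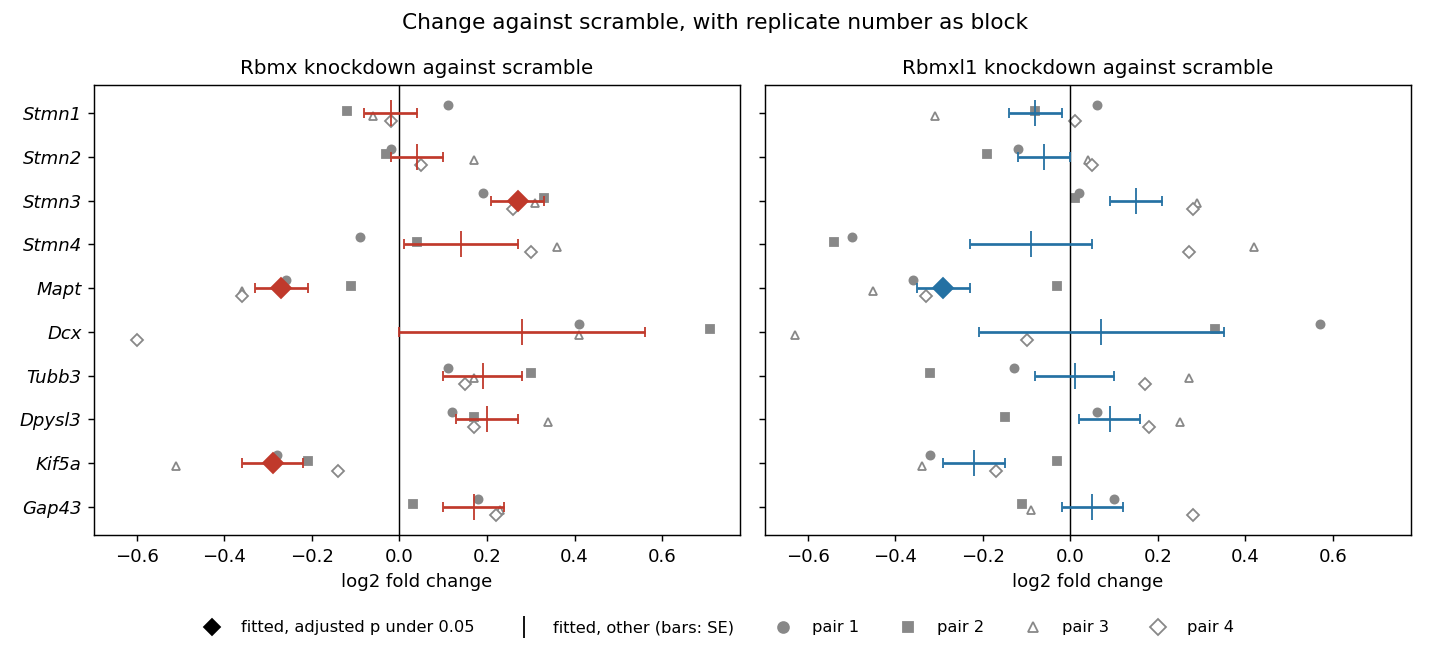
Log2 fold change of each gene against scramble in the Rbmx knockdown (left) and the Rbmxl1 knockdown (right), fitted with the replicate number as a block (bars, SE; diamonds, adjusted p under 0.05) and for each same-numbered pair (grey). Stmn3, Mapt and Kif5a pass in the left panel and Mapt in the right, and every grey symbol of Mapt is below 0.

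These calls rest on the pairing of replicate numbers and on single libraries. Without the replicate block, Stmn3 was at 0.27 ± 0.11 (adjusted p = 0.401), Mapt at −0.26 ± 0.19 (0.657) and Kif5a at −0.29 ± 0.08 (0.274) in the Rbmx knockdown, Mapt was at −0.28 ± 0.19 (0.767) in the Rbmxl1 knockdown. By edgeR 0 of the 10 passed in either knockdown, with 2 and 1 at an unadjusted p under 0.05. In the Rbmx knockdown, the Stmn3 call was lost without scramble replicate 3 (0.24, adjusted p = 0.0838) or 4 (0.26, 0.0656) and without knockdown replicate 2 (0.24, 0.0718) or 3 (0.29, 0.0513). Kif5a was lost without scramble replicate 1 (−0.27, 0.0618) or 3 (−0.23, 0.0912) and knockdown replicate 2 (−0.27, 0.0662) or 3 (−0.23, 0.0799). Mapt was lost without scramble replicate 1 (−0.27, 0.0580), 3 (−0.23, 0.0913) or 4 (−0.25, 0.0682) and knockdown replicate 2 (−0.28, 0.0562), 3 (−0.27, 0.0621) or 4 (−0.25, 0.0552). In the Rbmxl1 knockdown Mapt was lost without scramble replicate 1 (−0.28, 0.0609), 3 (−0.25, 0.102) or 4 (−0.27, 0.0800) and knockdown replicate 1 (−0.27, 0.0759), 3 (−0.25, 0.0817) or 4 (−0.30, 0.0670). Leaving out Rbmxl1 knockdown replicate 2 added Dpysl3 (0.21, 0.0164) in the Rbmx knockdown, and Stmn3 (0.21, 0.0490) and Kif5a (−0.27, 0.0344) in the Rbmxl1 knockdown.

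Compared directly, the knockdowns did not differ in any of the 10 genes by edgeR's test, where 0.0114% of all genes did, these being Rbmx and Rbmxl1 themselves. At an unadjusted p under 0.05 the count was 0 of 10 with edgeR and 1 of 10 with DESeq2, whose adjusted count was 0. The differences, Rbmx knockdown minus Rbmxl1 knockdown, were largest for Stmn4 (0.23 ± 0.14), Dcx (0.20 ± 0.28) and Tubb3 (0.18 ± 0.09), and were 0.12 ± 0.06 for Stmn3, 0.02 ± 0.06 for Mapt and −0.07 ± 0.07 for Kif5a. They were above 0 for 9 of the 10 genes, with a median of 0.12, where 8582 of 17569 genes were above 0 and the median was 0.00. Stmn2, higher with Rbmx reduced in 4 of 4 pairs (5.63% of all genes), differed by 0.10 ± 0.06 (adjusted p = 0.883). So Stmn3 and Kif5a passing in 1 knockdown is not shown to be a difference between the knockdowns.

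Between the sets of replicate numbers, 9 of the 10 genes were lower in replicates 3 and 4, where 46.9% of all tested genes were lower and the median difference was 0.03. Stmn2 was at 288 to 331 CPM in the 6 libraries numbered 1 or 2 and at 193 to 222 CPM in the 6 numbered 3 or 4, a log2 difference of −0.55 ± 0.05. Mapt was at 316 to 404 against 212 to 308 CPM (−0.51 ± 0.05). Neither gene overlapped between the sets of numbers, as for 20% of all tested genes. Stmn4 (−0.44 ± 0.11), Tubb3 (−0.34 ± 0.07), Dpysl3 (−0.28 ± 0.05) and Gap43 (−0.24 ± 0.05) were also lower in replicates 3 and 4, and Dcx was at −0.71 ± 0.23. Stmn3 alone of the 10 was higher there, by 0.25 ± 0.05, and it was so without overlap inside each of the 3 groups. Kif5a (−0.11 ± 0.05) and Stmn1 (−0.08 ± 0.05) moved least. The sum of the neuroblastoma and sympathetic markers went with the numbers too, at 1619 to 1732 CPM in replicates 1 and 2 and 1322 to 1449 CPM in replicates 3 and 4, and that of 4 proliferation genes was 1713 to 2005 and 1519 to 1731 CPM. The sums of the other lists were also lower in range in replicates 3 and 4, with overlap: 29.9 to 43.5 against 24.1 to 31.8 CPM for fibroblast markers, 16 to 20 against 12.9 to 17.5 for glia, and 6.58 to 8.72 against 5.73 to 7.28 for blood and endothelium. The part of these markers in the differences was not tested, and in bulk RNA fewer cells of a type and less RNA per cell cannot be told apart. The sets were seen in the expression values, so these differences are a description without a test.

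Within the sets, Rbmx knockdown changes had the same sign for the 3 genes that passed. They were called on these same libraries, so the shared sign is no separate support. Over all 17569 genes, replicates 1 and 2 alone gave 4 calls in the Rbmx knockdown and 30 in the Rbmxl1 knockdown, and replicates 3 and 4 alone gave 1818 and 992, so passing in the second set and not in the first is no difference particular to a gene. Stmn3 was at 0.27 ± 0.08 in replicates 1 and 2 (adjusted p = 0.154) and at 0.28 ± 0.06 in replicates 3 and 4 (0.00842). Mapt was at −0.18 ± 0.10 (0.344) and −0.37 ± 0.06 (0.00151), and Kif5a at −0.24 ± 0.09 (0.225) and −0.33 ± 0.08 (0.0107). Dpysl3 passed in replicates 3 and 4, at 0.25 ± 0.06 (0.0184), and was at 0.15 ± 0.10 (0.418) in the others. Tubb3 was at 0.22 ± 0.10 and 0.15 ± 0.06 in replicates 1 and 2 and in replicates 3 and 4, Gap43 at 0.11 ± 0.08 and 0.22 ± 0.08, and Stmn1 at 0.00 ± 0.09 and −0.05 ± 0.07. Stmn2 was at −0.02 ± 0.08 and 0.10 ± 0.06, Stmn4 at −0.02 ± 0.11 and 0.32 ± 0.12, and Dcx at 0.57 ± 0.33 and −0.01 ± 0.41. In the Rbmxl1 knockdown Mapt was at −0.18 ± 0.10 (0.467) and −0.40 ± 0.06 (0.00122), Stmn3 at 0.03 ± 0.08 (0.919) and 0.28 ± 0.06 (0.0133), and Kif5a at −0.16 ± 0.09 (0.511) and −0.27 ± 0.08 (0.0489). Stmn4 and Tubb3 had opposite signs there, −0.51 ± 0.11 and 0.34 ± 0.12 for Stmn4, and −0.21 ± 0.10 and 0.21 ± 0.06 for Tubb3. The others there were Stmn1 (0.00 ± 0.09 and −0.15 ± 0.07), Stmn2 (−0.14 ± 0.08 and 0.03 ± 0.06), Dcx (0.46 ± 0.33 and −0.35 ± 0.43), Dpysl3 (−0.03 ± 0.10 and 0.21 ± 0.06) and Gap43 (0.00 ± 0.08 and 0.09 ± 0.08). Tested as an interaction over all genes, the Stmn4 and Tubb3 differences were 0.87 ± 0.16 (unadjusted p = 8.3e-05, adjusted p = 0.169) and 0.44 ± 0.12 (0.00266, adjusted p = 0.337). No gene passed that test after adjustment, with 1944 genes (Rbmx knockdown) and 1468 (Rbmxl1 knockdown) at an unadjusted p under 0.05 of 17569.

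**Figure D5:**
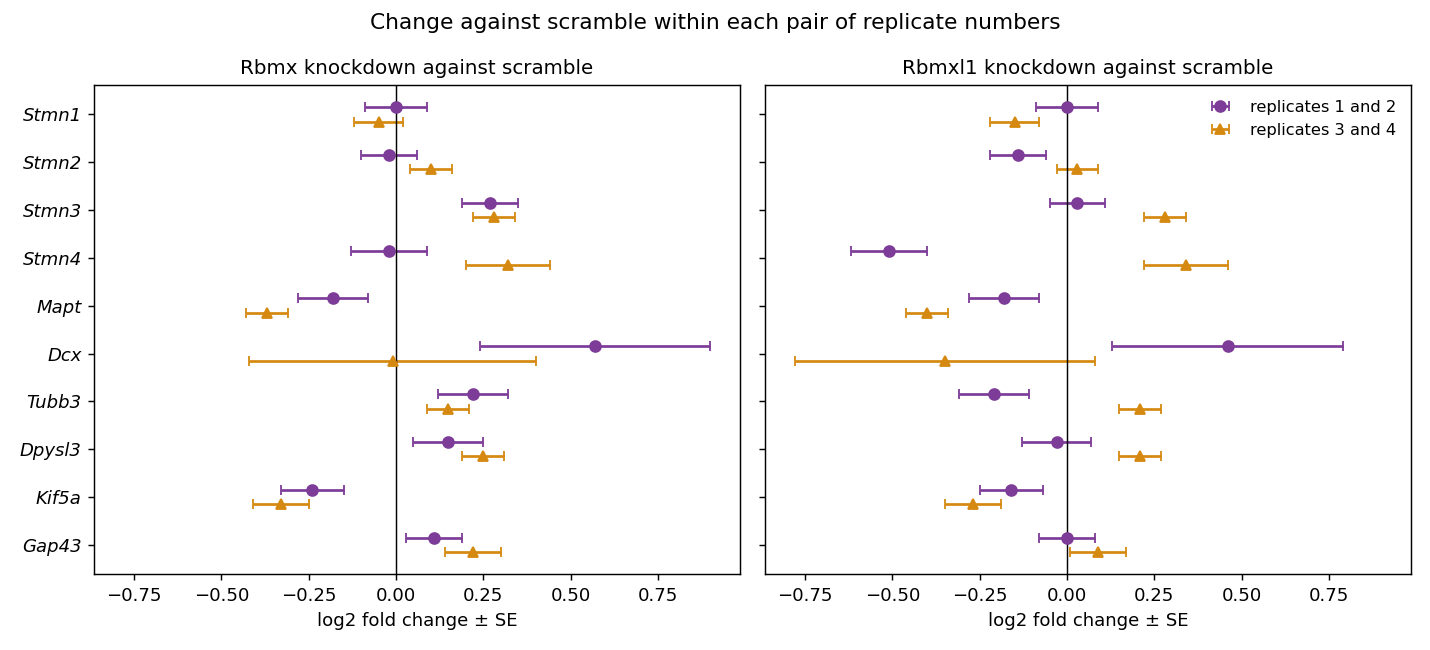
Log2 fold change against scramble ± SE, fitted separately in replicates 1 and 2 (circles) and in replicates 3 and 4 (triangles). Mapt and Kif5a lie below 0 in all 4 fits, and Stmn4 in the Rbmxl1 knockdown lies at −0.51 and 0.34.

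Around these genes, 134 related genes were listed in 7 functional groups, of which 123 were tested. In the Rbmx knockdown 15 passed (7 higher, 8 lower), or 12.2%, beside 8.35% of all genes tested. With Rbmxl1 reduced 8 passed (2 higher, 6 lower), or 6.50%, beside 4.46%. Whether these shares differ from those of all genes was not tested, and nothing particular to the lists is read from them. Tubb6, a beta-tubulin of many tissues, rose in both, from 65.8 ± 4.25 CPM to 90.2 ± 4.99 (0.46 ± 0.06, adjusted p = 0.00241) and 86.0 ± 7.96 (0.38 ± 0.06, adjusted p = 0.00644). Of the 14 tubulins tested, Tubg1, the gamma-tubulin of microtubule nucleation, was the other to rise (0.19 ± 0.05 in the Rbmx knockdown). Of 21 folding and modification genes, Agbl5, a tubulin deglutamylase, rose in both (0.21 ± 0.06 and 0.24 ± 0.06). The tubulin folding cofactor Tbce (−0.47 ± 0.10) and the glutamylase Ttll4 (−0.29 ± 0.06) fell in the Rbmx knockdown.

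Among 26 microtubule-associated and severing proteins, Dclk2, a kinase of the doublecortin family, fell in both knockdowns (−0.36 ± 0.07 and −0.26 ± 0.07), and Fign, a severing enzyme, fell in the Rbmx knockdown (−0.29 ± 0.07). Of 32 transport genes, the kinesin-2 motors Kif3a (−0.22 ± 0.06 and −0.24 ± 0.06) and Kif3b (−0.21 ± 0.05 in each) and the dynein chain Dync1li2 (−0.23 ± 0.06 and −0.22 ± 0.06) fell in both. The motor adaptor Mapk8ip1 rose in the Rbmx knockdown (0.18 ± 0.05). Of 20 growth cone genes, the actin-severing Cfl1 (0.30 ± 0.07) and the actin-bundling Fscn1 (0.22 ± 0.07) rose with Rbmx reduced. Rufy3 fell in both (−0.26 ± 0.05 and −0.23 ± 0.05), and Shtn1, which encodes shootin, fell in the Rbmxl1 knockdown (−0.32 ± 0.08). Nefh, the heavy neurofilament chain, rose in the Rbmx knockdown (0.22 ± 0.06) among 3 filament genes tested. The 7 tested genes in the list of kinases of tau and microtubules, which includes a kinase activator, had median changes of −0.03 and 0.01. Group medians ran from −0.03 to 0.15 in the Rbmx knockdown and from −0.04 to 0.09 in the Rbmxl1 knockdown.

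Like those of the 10 genes, these calls depend on the replicate block: by edgeR 0 of the 123 passed in either knockdown without it (13 and 8 at an unadjusted p under 0.05). The called genes had a median change, without sign on the log2 scale, of 0.23 in the Rbmx knockdown and 0.24 in the Rbmxl1 knockdown. Both medians were the same with and without the block. Each group holds every replicate number once, so the block changes the errors and hardly the sizes. The equal medians therefore do not bear on the calls. Replicates 1 and 2 alone, where few genes of any kind passed, also gave 0 of the 123 (32 and 16 at an unadjusted p under 0.05), at medians of 0.23 and 0.23. Of the 15 genes called in the Rbmx knockdown, 4, 8, 2 and 8 kept their call without scramble replicate 1, 2, 3 or 4, and 7, 5, 3 and 9 without knockdown replicate 1, 2, 3 or 4. Without Rbmxl1 knockdown replicate 4, 10 of the 15 kept it, and without its replicate 3, 14 (Mapk8ip1 lost). Of the 8 genes called in the Rbmxl1 knockdown, 1, 2, 1 and 2 kept their call without scramble replicate 1, 2, 3 or 4, and 1, 4, 1 and 1 without its own replicate 1, 2, 3 or 4. Without Rbmx knockdown replicate 1, 5 of the 8 kept it, and without its replicate 4, 7 (Dync1li2 lost). With no filter on low counts, Agbl5, Kif3a, Kif3b and Mapk8ip1 lost their call in the Rbmx knockdown and Kif3b in the Rbmxl1 knockdown, and with DESeq2 size factors Mapk8ip1 and Fscn1 lost theirs in the Rbmx knockdown. Replicates 3 and 4 alone kept 11 of the 15 and 2 of the 8, and all 15 and all 8 had the same sign in each set of replicate numbers. These genes were called on the same libraries, so the shared signs are no separate support. Tubb6 was at 0.54 ± 0.09 in replicates 1 and 2 and 0.37 ± 0.07 in replicates 3 and 4 of the Rbmx knockdown, and at 0.39 ± 0.09 and 0.39 ± 0.07 in the Rbmxl1 knockdown. Tubb6 passed in both knockdowns whichever library was left out, at adjusted p up to 0.0186 and 0.0378.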

How the data were processed

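The values are raw counts of reads per gene, deposited by the authors as 1 whole number per Ensembl identifier and library, without normalization. The submitters' processing notes name STAR 2.5.3a, HTSeq 0.6.1p1, R 3.3.2, DESeq2 1.16.1 and the build mm10. The annotation and the strand setting are not given in the sources used here. The 5 rows that name no gene (52.3% to 57.4% of each file's total) were left out. Names and positions came from GENCODE M21 (GRCm38), which held 55141 identifiers and lacked 260.

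Counts were fitted with edgeR 4.0.16 in R 4.3.3 (filterByExpr, minimum count 10 and total 15; TMM scaling), with group and replicate number as terms over all 12 libraries. Quasi-likelihood p-values were Benjamini-Hochberg adjusted over 17569 genes and called under 0.05. CPM used TMM-scaled library sizes. The code was tested on simulated counts. Same-numbered libraries of different groups deviated together in all 12 pairs (r across genes 0.20 to 0.52), so the numbers were taken to pair them. Libraries with other numbers of the same set (1 and 2, or 3 and 4) gave 0.10 to 0.43 in 12 pairs, overlapping that range, and those of different sets −0.57 to −0.13 in 24. The shared deviation thus goes largely with the set, and the pairing comes from the values alone.

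The 10 genes, the related lists and the design were chosen with earlier results of these data known. All related genes called are named, and Kif5b, Kif5c, Nefl and Nefm are named besides, without a call. Alternatives were the fit without the replicate block, DESeq2 1.42.0, its size factors, no filter, each library left out and each set of replicate numbers alone. Those on related genes were added after seeing the data.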

Additional observations from a re-analysis of the deposited data

How the results depend on the processing

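Without the replicate block 1 gene passed against scramble in each knockdown, with 1919 (Rbmx) and 1487 (Rbmxl1) at an unadjusted p under 0.05. By edgeR 0 and 0 of the 10 genes passed (2 and 1 at an unadjusted p under 0.05), and 0 and 0 of the related genes (13 and 8). Tubb3 turned to −0.02 in the Rbmxl1 knockdown under that fit. With no filter, 5 and 2 of the 10 genes passed (Tubb3, Dpysl3 and Kif5a added), beside 2085 genes in the Rbmx knockdown, 1243 in the Rbmxl1 knockdown and 86 between the knockdowns. DESeq2 gave 1279 genes and 2 of the 10 in the Rbmxl1 knockdown (Kif5a, adjusted p = 0.0348), 10 genes between the knockdowns, and 2024 genes and 4 of the 10 in the Rbmx knockdown (Dpysl3 added, 0.0322). Replicates 1 and 2 alone gave 4, 30 and 4 genes in the Rbmx, Rbmxl1 and direct comparisons and 0 of the 10 or of the related genes against scramble. Their signs turned for Stmn1 (0.00), Stmn2 (−0.02) and Stmn4 (−0.02) in the Rbmx knockdown, for Stmn1 (0.00), Tubb3 (−0.21) and Dpysl3 (−0.03) in the Rbmxl1 knockdown, and for Mapt (0.00) between them. Replicates 3 and 4 alone gave 1818 genes and 4 of the 10 in the Rbmx knockdown, 992 genes and 3 of the 10 in the Rbmxl1 knockdown, and 18 genes between the knockdowns. Their signs turned for Dcx (−0.01) in the Rbmx knockdown, for Stmn2 (0.03), Stmn4 (0.34) and Dcx (−0.35) in the Rbmxl1 knockdown, and for Stmn3 (0.00), Stmn4 (−0.02) and Tubb3 (−0.06) between them. Leaving out 1 library gave 281 to 1904, 126 to 1032 and 2 to 4 genes, 0 to 4, 0 to 3 and 0 to 0 of the 10, and 2 to 22 and 1 to 8 related genes. Signs then turned for Stmn1 (−0.07 to 0.02) in the Rbmx knockdown, for Dcx (−0.09 to 0.29), Gap43 (−0.03 to 0.10), Stmn4 (−0.23 to 0.04) and Tubb3 (−0.09 to 0.13) in the Rbmxl1 knockdown, and for Dcx (−0.01 to 0.40), Mapt (−0.02 to 0.08) and Stmn1 (−0.01 to 0.09) between them. The causes were not tested. Counts limit Dcx, with 20 to 67 per library.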

Other observations

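Neurofilament RNA was uneven: Nefl had at most 3 counts and Nefm at most 2 in any library, while Nefh stood at 83.9 ± 3.95 CPM in scramble (SD, n = 4).

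For the 3 genes that varied most over the 12 libraries, the closest profiles among 10533 other genes of at least 5 CPM were found by the root-mean-square difference of centred log2 CPM. For Mapt they were Zhx1 (0.086) and Zfp704 (0.092), where the median gene differed by 0.33. For Stmn4 they were Fam83d (0.086) and Jpt1 (0.14), against a median of 0.34. For Dcx they were S1pr2 (0.24) and Mboat2 (0.26), against 0.50. These are descriptions, and all points share libraries and depth.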
